A study of Mus musculus with 6 samples.

Results

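The genes described here are *Hmox1*, *Blvra*, *Blvrb*, *Slc48a1*, *Nfe2l2*, *Keap1*, *Bach1*, *Nqo1*, *Txnrd1* and *Srxn1*, which handle haem or belong to the NRF2 system that answers oxidative stress. They were chosen by gene symbol, with earlier results of these data known. All 10 were found among the 57180 genes of the deposited table. RNA came from osteoclast precursors (OCPs), which are bone marrow-derived macrophages (BMDMs) at an early step of osteoclast differentiation. There were 3 cultures from wild-type (WT) C57BL/6 mice and 3 from *lincRNA-EPS* knockout (KO) mice, 1 library each, and the series describes them as independent biological replicates. Every culture received 40 ng/mL M-CSF for 24 h and then 40 ng/mL RANKL, the cytokine that drives osteoclast differentiation, for 48 h. The age and sex of the marrow donors and the extent of the deletion are not given in the sources used here. The targeted transcript, listed as *Ttc39aos1*, had 20, 37 and 41 counts in the WT libraries and 0 in each KO library.

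Haem oxygenase 1, encoded by *Hmox1*, opens the haem ring and releases iron, carbon monoxide and biliverdin, which the biliverdin reductases encoded by *Blvra* and *Blvrb* turn into bilirubin. HRG1, the product of *Slc48a1*, carries haem out of the phagolysosome, and macrophages depend on it when they recycle red cells. NRF2, encoded by *Nfe2l2*, switches on antioxidant genes through antioxidant response elements (AREs). KEAP1 marks NRF2 for degradation, and BACH1 occupies the same elements as a repressor until haem binds it, so that *Hmox1* is under the control of both factors.

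The libraries held between 17757351 and 19998611 estimated counts. Of the 57180 genes, 13428 passed edgeR's expression filter, the 10 genes among them, and were compared between KO and WT with edgeR's quasi-likelihood test. Levels are counts normalised to library size with TMM scaling (CPM), fold changes are KO against WT on the log2 scale with their standard error (SE), and means stand with the SD over the 3 libraries of a genotype (n = 3). All 8 macrophage markers and all 10 osteoclast markers examined passed the filter. Of 10 erythroid markers, 9 were under 1 CPM in every library, 3 of them at 0 throughout, and the list summed to between 0.713 and 1.75 CPM. The summed level of 10 neutrophil markers was 1256 to 1416 CPM in WT and 1681 to 2024 CPM in KO, and 1 of the 10, *Ly6g*, was under 1 CPM in every library. Summed osteoclast markers were also apart, at 5105 to 5523 CPM in WT and 6841 to 7269 CPM in KO. Summed macrophage markers overlapped, at 16400 to 17566 CPM in WT and 14800 to 17603 CPM in KO, but 1 marker alone reached 14417 CPM in a library. Of the 8 markers, 7 were lower in KO and 1 higher, where 49.0% of all tested genes were lower. In 5 of them every WT library lay above every KO library, against 18.8% of all tested genes. With an unadjusted p under 0.05, 4 of the 8 were lower in KO. At the same level, 6 of 10 osteoclast markers were higher and 0 lower, and of 9 neutrophil markers tested 6 were higher and 1 lower, where 13.2% of all tested genes were lower and 13.0% higher. The part of these cell type markers in the results below was not tested. Lists of B cell, T cell, stromal and dendritic cell markers each summed to between 5.19 and 21.8 CPM in every library. With bulk RNA, fewer cells that express a gene and less of its RNA per cell cannot be told apart.

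A trend with base composition ran through the libraries. Across genes, the log2 fold change fell with the share of G and C bases (GC content) of the longest transcript (r = -0.51 across 13176 tested genes, which do not replicate each other). Libraries of the same genotype differed along the same axis, with r = -0.60 for KO replicate 3 against KO replicate 1 and r = 0.52 for WT replicate 2 against WT replicate 1. On the first principal component, with 56.4% of the variance, KO replicate 3 stood apart at 53.4, while the other libraries lay between -36.2 for WT replicate 2 and 13.3. The 10 transcripts range in GC content from 44.6% for *Blvra* to 58.0% for *Keap1*, where the median of the tested genes is 49.2%. The fold changes of the 10 genes are therefore given as measured and again after each library was corrected for GC content. Such a correction also takes out any true difference that follows GC content, and the part of base composition itself was not tested.

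**Figure D1:**
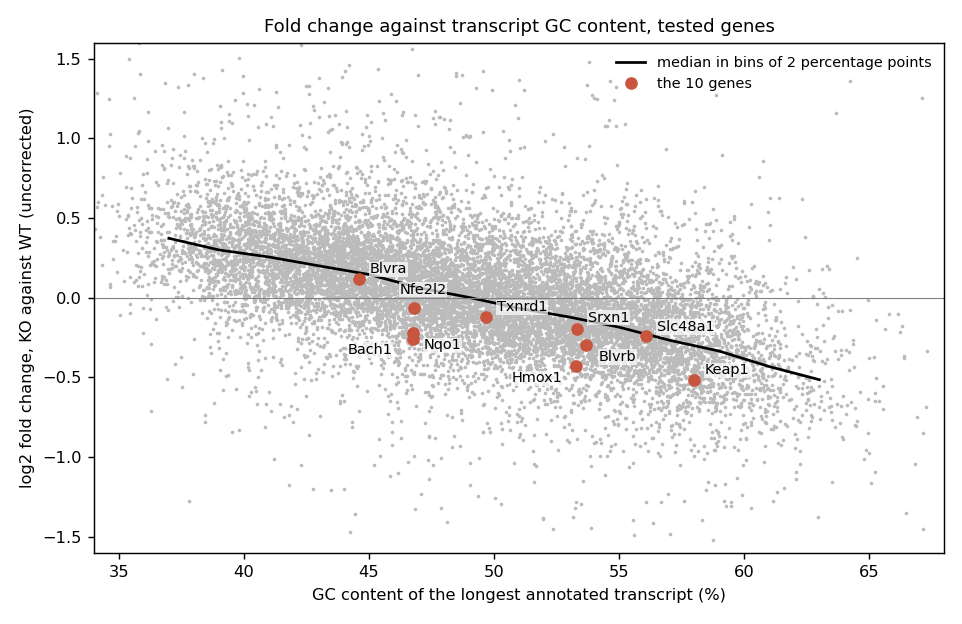
Uncorrected log2 fold change (KO against WT, vertical axis) against the GC content of the longest annotated transcript in percent (horizontal axis) for the tested genes (grey) and the 10 genes (red), with the median in bins of 2 percentage points that hold at least 100 genes (black line). The median descends with GC content, *Hmox1*, *Bach1* and *Nqo1* lie well under it and *Slc48a1* lies close to it; 83 genes are outside the axes.

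Of the 10 genes, 9 had lower mean levels in KO OCPs, with *Blvra* the exception, against 49.0% of all tested genes, and the same 9 had negative log2 fold changes without KO replicate 3. As measured, *Keap1* and *Hmox1* showed the largest differences, with KO at 0.700 and 0.743 of the WT mean, while after the GC correction *Bach1* had the largest log2 fold change (-0.34), followed by *Hmox1* and *Nqo1* (-0.30 each) and *Keap1* (-0.23). No gene of the 10 passed the limits used here, an adjusted p under 0.01 and a fold change above 1.3, which 0.00745% of all tested genes passed. The adjusted p ranged from 0.147 to 0.684 in edgeR's test, and 3 of the 10 (*Hmox1*, *Keap1* and *Bach1*) were lower with an adjusted p under 0.15, as were 5.86% of all tested genes. DESeq2 called 1 of the 10, *Hmox1*, at the same limits, where it called 0.695% of its tested genes as lower in KO, and limma-voom called 0.

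At an unadjusted p under 0.05, 6 of the 10 genes were lower in KO (*Hmox1*, *Keap1*, *Bach1*, *Blvrb*, *Slc48a1* and *Srxn1*) and 0 were higher. Of all tested genes, 26.2% had such a p, 13.2% lower and 13.0% higher. In 7 of the 10 genes every WT library lay above every KO library, against 18.8% of all tested genes. The median log2 fold change of the 10 genes was -0.23, and that of all tested genes was 0.0091. After the GC correction all 10 genes were lower in KO, with a median of -0.15, where 50.6% of all tested genes were lower. Every WT library then lay above every KO library in 6 of the 10, against 17.2% of all tested genes. Then 4 had an unadjusted p under 0.05 (*Bach1*, *Hmox1*, *Keap1* and *Nqo1*), against 13.5% of all tested genes lower in KO at this level. In the uncorrected fit the count of lower genes was 2 without WT replicate 1, where 10.9% of all tested genes were lower at this level. It was 3 without WT replicate 2 (5.60% of all tested genes) and 3 without WT replicate 3 (10.4%). It was 5 without KO replicate 1 (16.7%), 4 without KO replicate 2 (9.24%) and 5 without KO replicate 3 (10.3%). *Hmox1* and *Keap1* kept an unadjusted p under 0.05 in each of the 18 alternative fits.

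**Figure D2:**
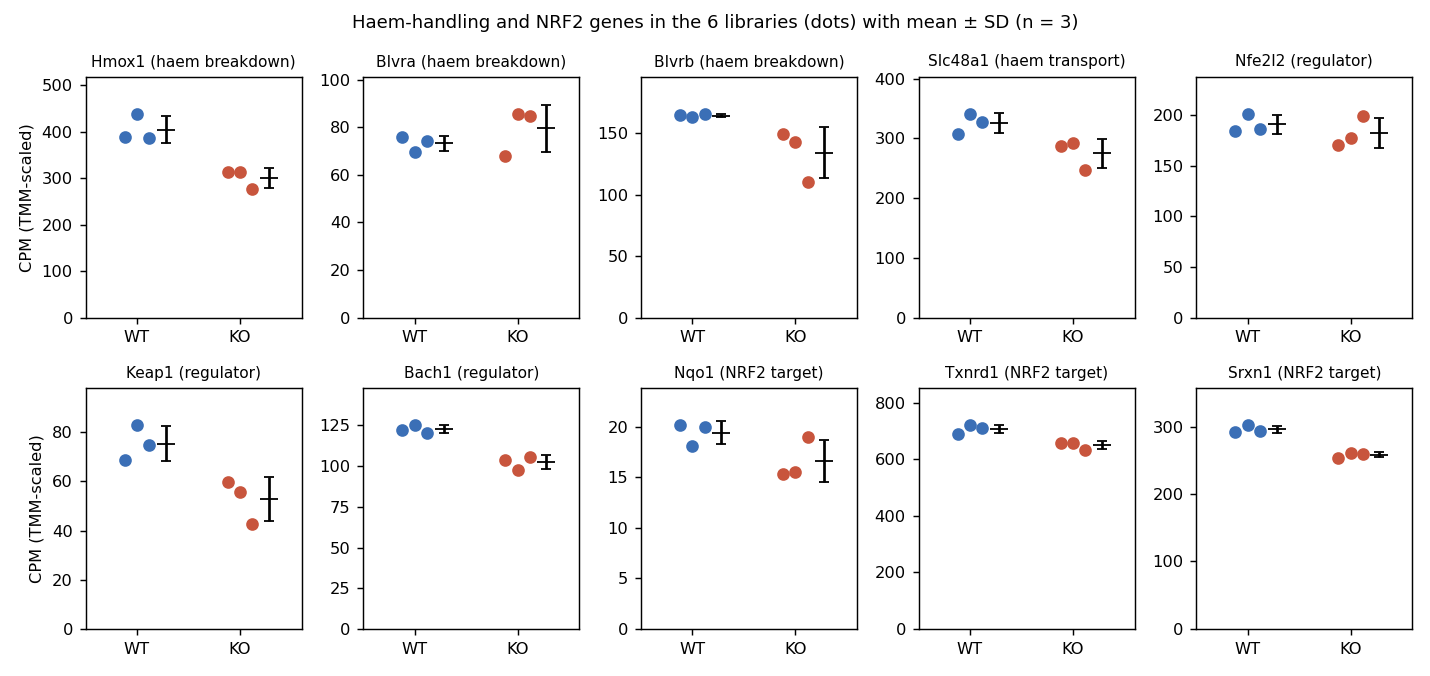
CPM after TMM scaling (vertical axis, from 0) of the 10 genes in the 3 WT (blue) and 3 KO (red) libraries, with the mean and SD (black) of each genotype. WT and KO libraries overlap for *Blvra*, *Nfe2l2* and *Nqo1* and are separate for the other genes.

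*Hmox1* (ENSMUSG00000005413) is the entry step of haem breakdown. It had 388, 438 and 387 CPM in WT replicates 1, 2 and 3. In KO replicates 1, 2 and 3 it had 313, 313 and 276 CPM. All KO libraries were below all WT libraries, and KO replicate 3 was the lowest. The means were 404 ± 29.4 CPM in WT and 301 ± 21.6 CPM in KO. The log2 fold change was -0.43 (SE 0.10, edgeR adjusted p = 0.147), with a 95% interval from -0.65 to -0.20. DESeq2 gave an adjusted p = 0.00752. With the GC correction the log2 fold change was -0.30 (edgeR adjusted p = 0.0548), and the KO libraries remained below the WT libraries. Ordered by unadjusted p in edgeR's test, *Hmox1* was number 175 of the 13428 genes.

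The study lists qRT-PCR primers for *Hmox1*, shown here because they define the stretch of the transcript that such an assay reads. They match the protein-coding transcript ENSMUST00000005548 exactly at bases 211 to 296 of 1569, an amplicon of 86 bases.
Hmox1 forward: gccgagaatgctgagttcatg
Hmox1 reverse: tggtacaaggaagccatcacc

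The constitutive relative *Hmox2* gave a reference for the induced enzyme. *Hmox2* had 102 ± 3.69 CPM in WT and 115 ± 11.3 CPM in KO, and its libraries overlapped, with a log2 fold change of 0.17 as measured and 0.19 after the GC correction. Per kilobase of transcript, *Hmox1* stood 4.03, 4.88 and 4.23 times above *Hmox2* in WT replicates 1, 2 and 3. The ratio was 3.34, 2.99 and 2.42 in KO replicates 1, 2 and 3. The ratio was lower in each KO library than in any WT library. This ratio was chosen after the values were seen and is a description without a test.

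Of the reductases downstream of haem oxygenase, *Blvrb* had 164, 163 and 166 CPM in WT replicates 1, 2 and 3. It had 149, 142 and 110 CPM in KO replicates 1, 2 and 3. The WT libraries were nearly equal, the KO libraries were all lower, and KO replicate 3 stood well below the other KO libraries. The log2 fold change of *Blvrb* was -0.29 (SE 0.12, edgeR adjusted p = 0.172), and -0.17 after the GC correction, where the WT and KO libraries overlapped. Without KO replicate 3 the uncorrected value was also -0.17. *Blvra* ranged from 69.6 to 75.8 CPM in WT and from 68.1 to 85.7 CPM in KO. Its log2 fold change of 0.12 (SE 0.11, edgeR adjusted p = 0.505) had a 95% interval from -0.14 to 0.37. After the GC correction it was -0.024, so that no direction can be given for *Blvra*. Leaving out 1 library moved the uncorrected value between 0.062 and 0.22.

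*Slc48a1*, the haem transporter of the phagolysosome, had 308, 341 and 328 CPM in WT replicates 1, 2 and 3. It had 287, 292 and 247 CPM in KO replicates 1, 2 and 3. The KO libraries were again all lower. For *Slc48a1* the log2 fold change was -0.24 (SE 0.10, edgeR adjusted p = 0.172). After the GC correction -0.025 remained, with a 95% interval from -0.17 to 0.12, and the libraries overlapped. The transcript of *Slc48a1* has a GC content of 56.1%, and the gene shares 29 exonic bases with *Hdac7* on the opposite strand.

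**Figure D3:**
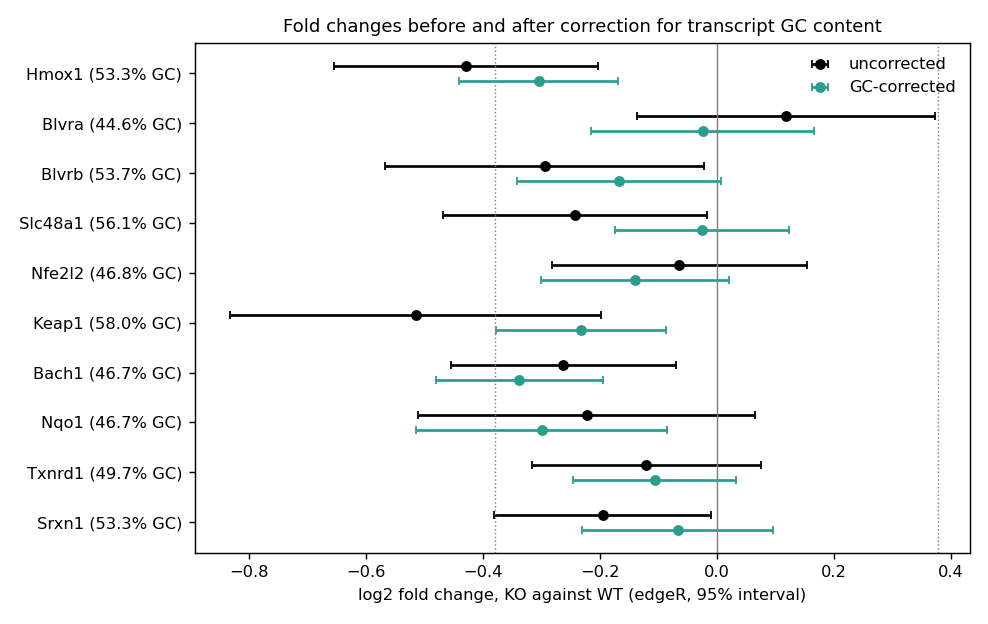
Log2 fold change (KO against WT) with its 95% interval from edgeR for the 10 genes, uncorrected (black) and corrected for GC content (green), with dotted lines at a fold change of 1.3 in either direction. The correction moves *Slc48a1* from -0.24 to -0.025 and *Keap1* from -0.51 to -0.23, and moves *Bach1* from -0.26 to -0.34.

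Among the regulators, *Bach1*, the haem-sensing repressor of *Hmox1*, had 122, 125 and 120.5 CPM in WT replicates 1, 2 and 3. It had 104, 97.5 and 106 CPM in KO replicates 1, 2 and 3. Spread within each genotype was small and the KO libraries were all lower. *Bach1* had a log2 fold change of -0.26 (SE 0.09, edgeR adjusted p = 0.147). Its transcript has a GC content of 46.7%, below the median of the tested genes, and the correction widened the log2 fold change to -0.34 (edgeR adjusted p = 0.0463). With DESeq2 the adjusted p was 0.0539 as measured and 0.00290 after the correction, where the fold change stayed within the limit of 1.3.

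*Keap1*, the adaptor through which NRF2 is ubiquitinated, had 68.5, 82.9 and 74.9 CPM in WT replicates 1, 2 and 3. It had 59.9, 55.8 and 42.7 CPM in KO replicates 1, 2 and 3. As measured, this was the largest difference of the 10 genes, with KO replicate 3 lowest. *Keap1* had a log2 fold change of -0.51 (SE 0.14, edgeR adjusted p = 0.147). At 58.0% its transcript has the highest GC content of the 10, and the corrected log2 fold change was -0.23 (SE 0.06, edgeR adjusted p = 0.0879) with the libraries still separate, smaller than those of *Bach1*, *Hmox1* and *Nqo1*. *Keap1* shares 510 of its 4693 exonic bases with *Gm16754* on the opposite strand, which had between 11.7 and 26.0 estimated counts in the libraries, against 839 to 1515 for *Keap1*. The library kit is stranded, but whether strand was used in counting is not given in the sources used here.

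*Nfe2l2* itself had 184, 201 and 187 CPM in WT replicates 1, 2 and 3. It had 171, 177 and 199 CPM in KO replicates 1, 2 and 3. The genotypes overlapped, since KO replicate 3 was nearly as high as the highest WT library. The log2 fold change was -0.064 (SE 0.10, edgeR adjusted p = 0.684), with a 95% interval from -0.28 to 0.15, and it was -0.14 after the GC correction, where every WT library lay above every KO library. Without KO replicate 3 the uncorrected value was -0.13, without KO replicate 1 it was -0.015 and without WT replicate 2 it was -0.024. The ratio of *Nfe2l2* to *Keap1* in CPM was 2.43 to 2.69 in the WT libraries and 2.85, 3.17 and 4.67 in KO replicates 1, 2 and 3. With GC-corrected levels the ratio overlapped, at 2.65 to 3.09 in WT and 2.87 to 3.17 in KO. The protein of NRF2 is controlled mainly by its degradation, which these RNA data do not measure.

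The target genes of NRF2 complete the group. *Srxn1* encodes sulfiredoxin, which repairs oxidized peroxiredoxins. It had 291, 302 and 294 CPM in WT replicates 1, 2 and 3, and 254, 261 and 259 CPM in KO replicates 1, 2 and 3. The replicates of *Srxn1* were close together and the genotypes were separate. Its log2 fold change was -0.20 (SE 0.08, edgeR adjusted p = 0.178), and -0.067 after the GC correction, where the libraries overlapped. *Txnrd1*, the cytosolic thioredoxin reductase, ranged from 690 to 720 CPM in WT and from 633 to 659 CPM in KO. Its genotypes were separate as well, but by little, with a log2 fold change of -0.12 (SE 0.09, edgeR adjusted p = 0.381). The corrected value was -0.11.

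*Nqo1*, a quinone reductase often taken as the standard NRF2 readout, was the least abundant of the 10 genes. It had 20.2, 18.1 and 19.9 CPM in WT replicates 1, 2 and 3. It had 15.4, 15.5 and 19.0 CPM in KO replicates 1, 2 and 3. KO replicate 3 reached into the WT range and the others did not. The log2 fold change was -0.22 (SE 0.13, edgeR adjusted p = 0.280). It was -0.30 after the GC correction (edgeR adjusted p = 0.106), where the genotypes were separate. As measured, it was -0.33 without KO replicate 3, -0.16 without KO replicate 1 and -0.18 without KO replicate 2. *Nqo1* rested on 270 to 402 counts in a library, and *Txnrd1* on 11445 to 13764.

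RefSeq promoter windows on build GRCm38.p6, from 250 bases before to 50 bases after a start site, were present for 8 of the 10 genes in 11 windows, without *Hmox1* and *Slc48a1*. They were searched on both strands for the core letters of the ARE, TGACNNNGC, and for the AP-1 letters TGANTCA, with which the ARE can overlap. The ARE core was found in 4 windows, of *Blvra*, *Nfe2l2*, *Txnrd1* and *Srxn1*, and 12.4% of all 32851 windows hold it. Those 4 windows are printed because they carry the letters through which NRF2 and BACH1 act, and the capitals mark the match, which on the printed strand reads in reverse in *Blvra*, *Txnrd1* and *Srxn1*. The coordinates are those of the promoter table, a build other than the GRCm39 named in the submitters' processing notes.
Blvra, chr2:127070407-127070706, plus strand: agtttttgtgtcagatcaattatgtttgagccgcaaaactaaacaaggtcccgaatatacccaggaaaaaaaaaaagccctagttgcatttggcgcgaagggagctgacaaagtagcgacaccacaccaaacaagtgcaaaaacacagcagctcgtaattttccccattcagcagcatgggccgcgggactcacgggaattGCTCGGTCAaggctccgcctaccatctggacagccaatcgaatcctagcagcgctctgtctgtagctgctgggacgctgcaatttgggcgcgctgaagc
Nfe2l2, chr2:75704614-75704913, minus strand: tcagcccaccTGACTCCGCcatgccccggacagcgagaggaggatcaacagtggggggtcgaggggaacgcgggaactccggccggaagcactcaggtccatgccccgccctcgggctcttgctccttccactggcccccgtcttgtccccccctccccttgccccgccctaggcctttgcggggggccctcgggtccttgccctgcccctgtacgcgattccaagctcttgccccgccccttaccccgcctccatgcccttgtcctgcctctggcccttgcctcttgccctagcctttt
Txnrd1, chr10:82858956-82859255, plus strand: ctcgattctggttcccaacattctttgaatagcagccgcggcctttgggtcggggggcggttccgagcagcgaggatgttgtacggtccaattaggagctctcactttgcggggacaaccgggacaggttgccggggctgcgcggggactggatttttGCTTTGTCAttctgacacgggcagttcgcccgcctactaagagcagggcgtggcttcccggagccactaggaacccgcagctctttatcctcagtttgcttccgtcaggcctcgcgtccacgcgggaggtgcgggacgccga
Srxn1, chr2:152105274-152105573, plus strand: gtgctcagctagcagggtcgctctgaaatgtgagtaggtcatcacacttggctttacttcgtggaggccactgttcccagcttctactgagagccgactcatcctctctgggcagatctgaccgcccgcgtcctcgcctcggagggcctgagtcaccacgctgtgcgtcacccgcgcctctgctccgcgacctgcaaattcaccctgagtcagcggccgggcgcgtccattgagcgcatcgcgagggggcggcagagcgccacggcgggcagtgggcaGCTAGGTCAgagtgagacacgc
Counted from the start site, the capitals begin at base -49 in *Blvra*, -240 in *Nfe2l2*, -92 in *Txnrd1* and 29 in *Srxn1*. The other 2 windows of *Txnrd1* hold no match. Of the 11 windows, the AP-1 letters were found only in that of *Srxn1*, at bases -102 and -45, and 7.81% of all windows hold them. Neither overlaps the ARE match in capitals. From base -45 the window reads TGAGTCAGC, which has a G where the searched core TGACNNNGC has a C. Variants of the core were not searched. The windows of *Keap1*, *Bach1*, *Nqo1* and *Blvrb* hold neither run of letters. A match is a run of letters in this window and not evidence of binding. The absence of a match says nothing about bases outside the window or about variants of the core.

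Per kilobase of the longest transcript, which allows genes to be compared, *Hmox1* was the most abundant of the 10 in WT, with 258 ± 18.7 CPM per kilobase. *Txnrd1* followed with 195 ± 4.17 and *Slc48a1* with 128 ± 6.64 CPM per kilobase. *Blvrb* (109 ± 0.991) and *Srxn1* (105 ± 2.02) came next. *Nfe2l2* had 77.0 ± 3.71 and *Blvra* 50.2 ± 2.23 CPM per kilobase. *Bach1* (20.9 ± 0.402) and *Keap1* (20.9 ± 1.99) did not differ beyond their spread, and *Nqo1* was lowest with 12.5 ± 0.722 CPM per kilobase.

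In KO OCPs the order was the same except that *Srxn1* (91.8 ± 1.34) and *Blvrb* (89.1 ± 13.7 CPM per kilobase) stood in the opposite order, with overlapping libraries. *Hmox1* at 192 ± 13.8 and *Txnrd1* at 179 ± 4.08 CPM per kilobase, well apart in WT, overlapped in KO, since KO replicate 3 had 176 for *Hmox1* and 175 for *Txnrd1*. Within each KO library *Hmox1* was still above *Txnrd1*. Levels depend on which transcript is taken as the length. With the union of all exons, *Txnrd1*, whose exons sum to 7086 bases against 3622 in its longest transcript, stood at the fourth place in place of the second over all 6 libraries. With that length the mean and SD over the 6 libraries were 201 ± 35.1 CPM per kilobase for *Hmox1* and 95.7 ± 4.76 for *Txnrd1*.

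**Figure D4:**
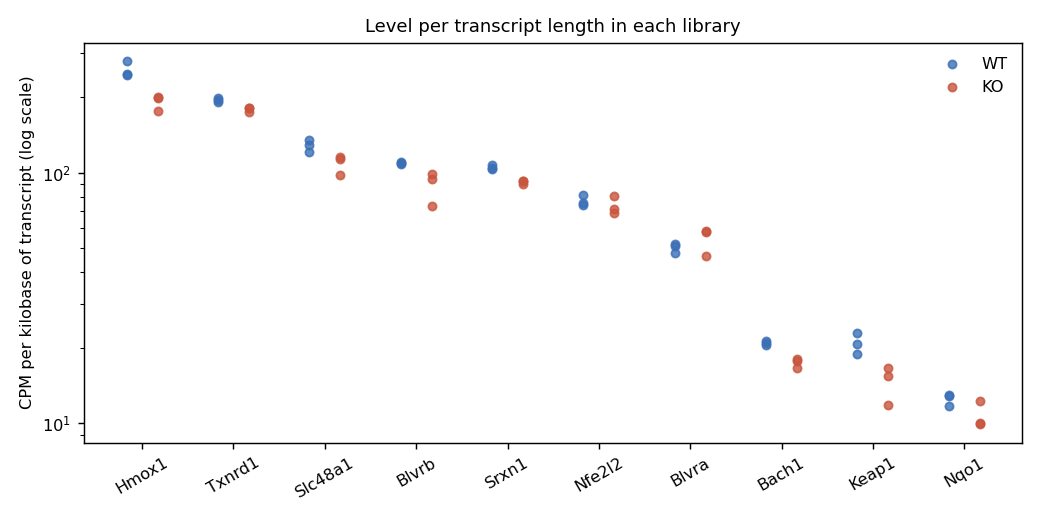
CPM per kilobase of the longest annotated transcript (vertical axis, log scale) of the 10 genes in each WT (blue) and KO (red) library, ordered by the WT mean. *Hmox1* and *Txnrd1* are apart in WT and overlap in KO, where *Hmox1* is still the higher within each library. *Bach1*, *Keap1* and *Nqo1* lie lowest in both genotypes.

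Wider lists, also chosen with earlier results of these data known, place these genes in their pathways. The haem synthesis list covers the enzymes from ALA synthase to ferrochelatase with their mitochondrial carriers. Of its 14 genes 13 were tested, and the erythroid *Alas2* was not. At an unadjusted p under 0.05, 1 was lower in KO and 0 higher, with a median log2 fold change of -0.049, where 13.2% of all tested genes were lower and 13.0% higher at this level. The lower gene was *Abcb6*, a porphyrin carrier, with 35.7 ± 1.48 CPM in WT and 29.5 ± 2.92 CPM in KO. Its log2 fold change was -0.28, and -0.14 after the GC correction. The count turned with the correction, to 0 lower and 1 higher with a median of -0.0059, where 13.5% of all tested genes were lower and 12.4% higher. The higher gene was *Uros*, uroporphyrinogen III synthase, named after its values were seen, with a log2 fold change of 0.27 as measured and 0.31 corrected, and 7.39 ± 0.524 CPM in WT against 8.95 ± 0.177 CPM in KO.

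The list of other genes of haem uptake, transport and breakdown had 12 of 14 genes tested, with a median of 0.11. At an unadjusted p under 0.05, 2 were higher and 2 lower in KO, where 13.0% of all tested genes were higher and 13.2% lower. After the GC correction 3 were higher and 2 lower, with a median of 0.083, where 12.4% of all tested genes were higher and 13.5% lower. *Lrp1*, the receptor that takes up haem bound to haemopexin among many other ligands, had the largest difference of the list. It had 2514, 3457 and 2691 CPM in WT replicates 1, 2 and 3 and 2077, 1413 and 968 CPM in KO replicates 1, 2 and 3. The genotypes were separate but both spread widely. Its log2 fold change was -0.96 (SE 0.25, edgeR adjusted p = 0.147) and -0.70 after the GC correction. *Por*, the reductase that feeds electrons to haem oxygenase, had 295 ± 41.9 CPM in WT and 210 ± 33.4 CPM in KO. Its log2 fold change of -0.49 became -0.19 with the GC correction. *Spic*, a transcription factor of red pulp macrophages that haem induces, was higher in KO at a low level, 4.36 ± 0.675 against 6.69 ± 0.649 CPM. *Pgrmc1*, a haem-binding membrane protein, had 78.3 ± 1.33 CPM in WT and 95.6 ± 5.14 CPM in KO. The log2 fold changes of *Spic* and *Pgrmc1* were 0.61 and 0.29, and 0.39 and 0.15 after the GC correction. *Cd163*, the receptor for haemoglobin bound to haptoglobin, had an unadjusted p above 0.05.

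The list of NRF2 control and partners, which holds the ubiquitin ligase around KEAP1, other ligases and kinases, small MAF proteins and relatives of NRF2, had 14 of 15 genes tested. The median was -0.21, and 4 genes were lower and 1 higher in KO at an unadjusted p under 0.05, against 13.2% and 13.0% of all tested genes. The higher gene was *Cul3*, the scaffold of the KEAP1 ligase, at 112 ± 12.6 CPM in WT and 151 ± 37.3 CPM in KO, a log2 fold change of 0.43. The lower genes were *Nfe2l1*, a relative of NRF2, *Dpp3*, which binds KEAP1, *Mafk*, a small MAF partner, and *Syvn1*, a ubiquitin ligase. Their log2 fold changes were -0.27, -0.27, -0.27 and -0.38. After the GC correction *Cul3* was at 0.086 and the 4 lower genes lay between -0.15 and -0.041, and none of the 5 had an unadjusted p under 0.05. The median of the list shrank to -0.043, with 8 genes lower and 6 higher. At an unadjusted p under 0.05, 2 other genes were then lower and 0 higher, against 13.5% and 12.4% of all tested genes. These were *Btrc*, the adaptor of another ubiquitin ligase that acts on NRF2, at -0.22 as measured and -0.48 corrected, and *Gsk3b*, a kinase upstream of it, at -0.058 as measured and -0.16 corrected, both named after their values were seen.

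The list of other NRF2 targets, enzymes of glutathione, NADPH, peroxide and drug metabolism with ferritin and ferroportin, had 27 of 28 genes tested and a median of -0.15. Of these 27, 21 were lower in KO, against 49.0% of all tested genes. At an unadjusted p under 0.05, 7 were lower and 1 higher, against 13.2% and 13.0% of all tested genes. *Osgin1*, an oxidative stress response gene, had 29.9 ± 4.07 CPM in WT and 19.7 ± 2.21 CPM in KO, a log2 fold change of -0.60. *Abcc1*, an exporter of glutathione conjugates, had 525 ± 33.5 and 407 ± 44.6 CPM, *Cbr3*, a carbonyl reductase, had 16.9 ± 1.43 and 13.1 ± 0.926 CPM, and *Cat*, catalase, had 431 ± 17.7 and 363 ± 18.9 CPM in WT and KO. Their log2 fold changes were -0.37, -0.37 and -0.25. The higher gene was *Txn1*, thioredoxin, the substrate of *Txnrd1*, with 297 ± 62.2 CPM in WT and 396 ± 38.4 CPM in KO, a log2 fold change of 0.41. After the GC correction 21 of the 27 were again lower, with a median of -0.15, where 50.6% of all tested genes were lower, and 9 were lower and 2 higher at an unadjusted p under 0.05, against 13.5% and 12.4% of all tested genes. The corrected log2 fold changes were -0.25 for *Osgin1*, -0.31 for *Abcc1*, -0.26 for *Cat*, -0.15 for *Cbr3* and 0.36 for *Txn1*. Across the 4 lists, 0 genes passed the limits in edgeR's test, beside the counts at an unadjusted p under 0.05 given for each list, and DESeq2 called 1, *Lrp1* (adjusted p = 0.00597), where edgeR called 0.00745% of all tested genes and DESeq2 called 0.695% of its tested genes as lower in KO.

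With the GC correction and DESeq2 together, which called 1.43% of the tested genes as lower in KO, 0 of the 10 genes and 3 of the lists' genes passed the limits. These were *Lrp1* and the NRF2 targets *Gclm*, a subunit of the enzyme that starts glutathione synthesis, and *Slc7a11*, the cystine importer, named after their values were seen. *Gclm* had 268, 255 and 276 CPM in WT replicates 1, 2 and 3 and 225, 231 and 260 CPM in KO replicates 1, 2 and 3. *Slc7a11* had 92.7, 76.1 and 88.1 CPM in WT replicates 1, 2 and 3 and 76.7, 64.9 and 82.5 CPM in KO replicates 1, 2 and 3. Uncorrected libraries overlapped for both. Their transcripts are poor in GC, at 42.1% and 40.7%, and the log2 fold changes went from -0.16 to -0.38 for *Gclm* and from -0.20 to -0.45 for *Slc7a11* with the correction.

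**Figure D5:**
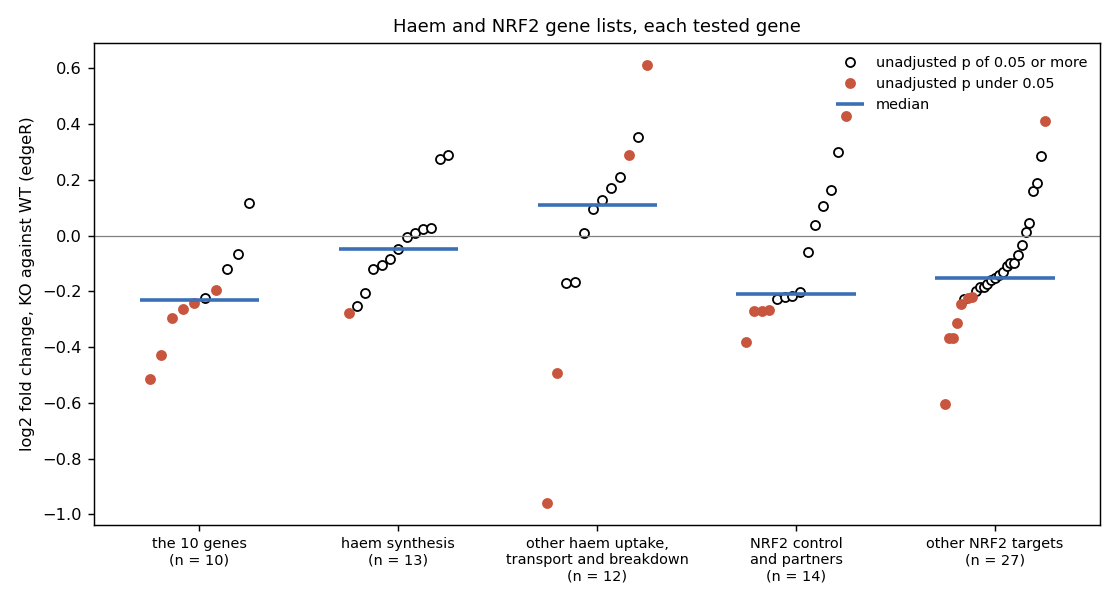
Uncorrected log2 fold change (KO against WT, edgeR) of each tested gene of the 10 genes and of 4 wider lists, with filled points for an unadjusted p under 0.05 and a bar at the median. The medians are -0.23, -0.049, 0.11, -0.21 and -0.15 from left to right.

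The genes outside the 10 whose profile over the 6 libraries was most like that of *Hmox1* were *Mvk*, *Actr5*, *Cenpb*, *Psap* and *Kcnk13*, among tested genes with a mean of at least 10 CPM. Likeness was measured as the root mean square difference of the log2(CPM + 1) values, each centred on its own mean, and was 0.0285 to 0.0327 for these 5. *Psap*, the precursor of the saposins, had 10816 ± 815 CPM in WT and 8380 ± 616 CPM in KO, and *Mvk*, mevalonate kinase, had 20.9 ± 2.02 and 15.1 ± 0.803 CPM. The GC content of the 5 transcripts was 54.7% to 59.1%. Likeness was measured on uncorrected levels, where the log2 fold changes of the 5 lay between -0.47 and -0.37, and after the GC correction they lay between -0.25 and -0.13, against -0.30 for *Hmox1*. Of the 10 genes, *Slc48a1*, *Keap1* and *Blvrb* came closest to *Hmox1*, at 0.100, 0.106 and 0.117, although 565, 689 and 963 genes lay closer than each of them in turn, and *Blvra* lay farthest, at 0.320.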

How the data were processed

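RNA-seq libraries from 3 WT and 3 KO cultures were grouped by genotype from their labels. The values deposited by the authors are estimated counts per gene in 1 table, not normalized and partly not whole, beside a mean per genotype that was left unused. The submitters' processing notes name fastp, HISAT2, StringTie and RSEM and the build GRCm39, without roles or versions. Of the 57180 genes, 525 have no symbol and stayed in the fit by identifier.

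After rounding, genes were filtered with filterByExpr, scaled by TMM and compared with glmQLFit (legacy = FALSE) and glmQLFTest in edgeR 4.0.16 under R 4.3.3, without covariates and with Benjamini-Hochberg adjustment over 13428 genes. DESeq2 1.42.0 and limma 3.58.1 served as alternatives. Limits were an adjusted p under 0.01 and a fold change above 1.3, where the study's 1.3, written as a log2 fold change in a legend, was read as a fold. Intervals (95%) and SE derive from the F statistic. At these depths 3 counts equal 0.150 to 0.169 CPM. Libraries of 1 genotype differed beyond sampling noise (lowest chi-square per degree of freedom 3.77).

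Length and GC content came from the longest GENCODE M21 transcript, on GRCm38, found for 51884 identifiers. For the GC correction, a spline (5 degrees of freedom) of each library's log2 deviations on GC content entered as offsets. The fits were tested on simulated counts.

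The 10 genes and the lists (haem synthesis, other haem uptake, transport and breakdown, NRF2 control and partners, other NRF2 targets, markers of 8 cell types) were chosen with earlier results of these data known. Named were up to 4 genes per pathway list and direction with the lowest unadjusted p under 0.05, and the 5 genes most like *Hmox1*. *Hmox2*, *Cd163*, *Ly6g*, *Gclm*, *Slc7a11*, *Uros*, *Btrc*, *Gsk3b* and the ratios were singled out after their values were seen. Alternatives were other scalings, tests, filters and limits, unrounded counts, the GC correction, a replicate block and each library left out.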

Additional observations from a re-analysis of the deposited data

How the results depend on the processing

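Of 180 fold changes of the 10 genes under an alternative, 176 kept their direction and their side of the limits. *Hmox1* passed them with DESeq2 (adjusted p = 0.00752), so that 1 of the 10 genes was called in place of 0, while over its 18 alternatives its adjusted p ran from 0.00206 to 0.442. *Blvra* changed sign with the GC correction (-0.024), with the GC correction and DESeq2 (-0.024) and with the GC correction and the replicate block (-0.029). Over all tested genes, 1 was called in the main comparison, 126 with DESeq2, 3 with the GC correction and 336 with both. With each library left out in turn, 0 to 2 genes were called over all genes, and 2 to 5 of the 10 genes were lower with an unadjusted p under 0.05, where 5.60% to 16.7% of all tested genes were. In these fits, as in the main comparison, the spread is pooled over both genotypes, also where an arm has 2 libraries. An adjusted p limit of 0.05 and a log2 limit of 1.3 each left 1 gene called. The cause of these shifts was not tested.

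The replicate block left 1 gene called over all genes, and of the 10 genes 0 were called and 4 were lower with an unadjusted p under 0.05, against 13.9% of all tested genes. The deviations of same-numbered WT and KO libraries correlated at -0.22, 0.077 and 0.17, and nothing in the labels says that equal numbers mark a shared batch, so the libraries were not treated as pairs. With the GC correction and the block together, 4 of the 10 genes were lower with an unadjusted p under 0.05, against 11.6% of all tested genes. With the union of exons as length, the mean level over 6 libraries became 95.7 CPM per kilobase for *Txnrd1*, 53.6 for *Blvrb*, 49.1 for *Nfe2l2*, 31.2 for *Blvra* and 13.7 for *Keap1*. With 3 libraries per genotype, uncorrected differences of the size seen here for *Blvra*, *Nfe2l2*, *Nqo1* and *Txnrd1* cannot be told from 0. The intervals of these genes in edgeR's test spanned 0. After the GC correction the intervals of *Blvra*, *Blvrb*, *Slc48a1*, *Nfe2l2*, *Txnrd1* and *Srxn1* spanned 0, and that of *Nqo1* did not. Over the 10 genes the lowest adjusted p in edgeR's uncorrected test was 0.147.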

Other observations

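The study lists qRT-PCR primers for NRF2, the protein of *Nfe2l2*, which are printed because they were compared with the mouse transcripts.
Nrf2 forward: agtggatctgccaactactc
Nrf2 reverse: catctacaaacgggaatgtctg
Neither primer had an exact match among the 141767 transcripts of GENCODE M21. Against the protein-coding *Nfe2l2* transcript ENSMUST00000102672, the best ungapped alignment left 2 mismatches for each primer. The *Hmox1* primers matched 1 transcript (forward) and 2 transcripts (reverse), all of *Hmox1*, without mismatch. The RNA-seq values for *Nfe2l2* do not depend on these primers, and no other annotation was searched.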
